A study of Homo sapiens with 60 samples.

Results

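IER2, IER3, IER5, ZFP36, ZFP36L1, DUSP1, DUSP5, KLF6 and MYC are early response genes, whose mRNA appears soon after a growth factor or stress signal and is then removed quickly. The 9 genes were taken by symbol from the 60590 gene rows of a count table, all 9 were found, and all 9 were among the 23681 genes that passed the filter on low counts. They were read in RNA from human embryonic kidney HEK293 cells of the Flp-In type, which carry an integration site for 1 stably expressed construct. Each line expressed a FLAG-tagged fusion of APEX2, a peroxidase that attaches biotin to molecules close to it when given biotin-phenol and hydrogen peroxide. The pulldown is the RNA held on streptavidin beads and the input is the total RNA of the same cells taken before the beads. The first table held 56 libraries, which are 2 inputs and 2 pulldowns for each of 14 constructs (here called baits), and the second table held 4 SRSF7 pulldown libraries.

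All groups shared the same treatment, which was a 30 minute incubation with 500 µM biotin-phenol and 1 minute of 1 mM H2O2, begun 24 hours after plating. The baits SRSF7, SRSF1 and RNPS1 are proteins of nuclear speckles, SAM68 names the Sam68 body, PML and SP100 are proteins of PML bodies, SMN2 of gems and WRAP53 of Cajal bodies. NPAT belongs to histone locus bodies, FBL (fibrillarin) to nucleoli and LMNA to the lamina under the nuclear envelope, and 3 further constructs are labelled NLS, GFP and FLAG. The second table held 2 ribosome-depleted and 2 poly(A) libraries. Labelling relied on a tagged protein made in addition to the cell's own, and the sources used here do not say whether the lines were single clones or whether the libraries of a group came from separate cultures.

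Early response genes are switched on through the RAS, RAF, MEK and ERK kinases and related pathways without new protein synthesis, and their mRNAs carry AU-rich elements that mark them for decay. The proteins of the group act back on the response: ZFP36 and ZFP36L1 bind AU-rich elements and recruit the deadenylase, DUSP1 and DUSP5 are phosphatases that switch off MAP kinases, and KLF6 and MYC are transcription factors. IER2, IER3 and IER5 are small early response proteins, of which IER3 acts in survival signalling and IER5 in regulating heat shock factor.

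In RefSeq's GRCh38.p14 annotation IER2 spans chromosome 19, 13150411 to 13154911, IER3 chromosome 6, 30743199 to 30744547, and IER5 chromosome 1, 181088700 to 181092900. ZFP36 spans chromosome 19, 39406847 to 39409407, and ZFP36L1 chromosome 14, 68787655 to 68796243. DUSP1 lies on chromosome 5, 172768096 to 172771195, and DUSP5 on chromosome 10, 110497907 to 110511533. KLF6 lies on chromosome 10, 3775996 to 3785209. They are short genes: 8 of the 9 have an annotated span under 10 kb, and DUSP5 spans 13627 bp. The counts are per gene and do not separate exons, introns or UTRs. The span of IER3 overlaps the antisense gene IER3-AS1, which had 0 to 28 counts per library where IER3 had 77 to 780 (56 libraries), and the strand setting of the counting is not given in the sources used here.

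RefSeq promoters (250 bases before to 50 after the annotated start) matched 6 of the 9 members. Those of ZFP36, DUSP1 and KLF6 are shown because these 3 genes, a decay factor, a phosphatase and a transcription factor, are described most closely in the results. Capitals mark 4 motifs searched on both strands: the GC box GGGCGG, the cAMP response element TGACGTCA, the E-box CACGTG and the TATA motif TATAA. None of the motifs marked overlaps another. The ZFP36 promoter is chr19:39406597-39406896 on the plus strand, the DUSP1 promoter chr5:172771146-172771445 on the minus strand and the KLF6 promoter chr10:3785160-3785459 on the minus strand, each written 5′ to 3′ on the gene's strand.
ZFP36: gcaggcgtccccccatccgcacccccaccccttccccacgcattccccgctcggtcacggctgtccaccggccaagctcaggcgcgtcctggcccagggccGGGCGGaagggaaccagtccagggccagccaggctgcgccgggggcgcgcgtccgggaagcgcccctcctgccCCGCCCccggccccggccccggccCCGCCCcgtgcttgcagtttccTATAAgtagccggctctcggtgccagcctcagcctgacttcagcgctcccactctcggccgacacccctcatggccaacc
DUSP1: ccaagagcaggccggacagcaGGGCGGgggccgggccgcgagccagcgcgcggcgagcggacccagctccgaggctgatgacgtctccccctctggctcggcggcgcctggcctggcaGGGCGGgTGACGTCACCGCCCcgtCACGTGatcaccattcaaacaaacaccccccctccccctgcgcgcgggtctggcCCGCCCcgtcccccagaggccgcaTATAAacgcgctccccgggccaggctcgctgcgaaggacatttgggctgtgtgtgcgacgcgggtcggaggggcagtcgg
KLF6: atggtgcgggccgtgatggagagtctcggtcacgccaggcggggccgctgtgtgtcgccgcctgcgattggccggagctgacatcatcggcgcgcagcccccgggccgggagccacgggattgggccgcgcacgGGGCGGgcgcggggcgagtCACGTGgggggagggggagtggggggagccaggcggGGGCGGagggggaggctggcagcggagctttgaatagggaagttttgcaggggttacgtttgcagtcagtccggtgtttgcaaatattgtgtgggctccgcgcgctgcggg

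The DUSP1 promoter held 4 GC boxes, 1 cAMP response element, 1 E-box and 1 TATA motif. The ZFP36 promoter held 3 GC boxes and 1 TATA motif, and the KLF6 promoter 2 GC boxes and 1 E-box. Among the others IER2 held 4 GC boxes, IER5 held 1 TATA motif, and 1 of the listed ZFP36L1 starts held 1 cAMP response element. Of 35116 promoters of the same length, 1.85% held the cAMP response element, 7.26% the E-box, 45% the GC box and 20.4% the TATA motif. The CArG box, held by 1.29% of promoters, was not found in these windows. A match describes the letters of the window and does not show that a factor binds there.

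Library totals ran from 14038645 to 56256915 counts in the inputs, 19280434 to 42097988 in the pulldowns and 23522548 to 30511742 in the second table, and the lowest count of any member was 37, for ZFP36 in a pulldown. Of 7 markers of HEK293 cells, 6 had a median input level over 1 CPM, with NEFM at 0.36 CPM. CPM of the markers are scaled by library total, while CPM of the members are TMM-scaled. Of 10 markers of other cell types 8 had a median under 1 CPM, with HBB at 0 in all 28 inputs. The other 2 were COL1A1, with a median of 12.3 CPM, and COL3A1, with 1.27 CPM. COL1A1 thus lay above the HEK293 marker LHX1 (median 6.06 CPM). The libraries fell into 3 sets by counts of the pseudogenes RPS14P8 and RPS3AP21, which the labels do not mention. Set I was the 16 inputs of SP100, WRAP53, SMN2, SAM68, RNPS1, NPAT, FBL and GFP, with 395 to 1078 counts of RPS14P8 where no other library passed 32. Set II was formed by 12 inputs and 24 pulldowns, and set III by the pulldowns of GFP and LMNA with the 4 libraries of the second table. Pulldowns and inputs of SRSF7, SRSF1, PML, NLS and FLAG were all in set II, while for the other 9 baits the set and the fraction cannot be told apart. The first inputs of FBL and NPAT stood apart from their second inputs, and counts are also given without them. These are bulk samples, in which fewer cells with an RNA and less of it per cell cannot be told apart.

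Pulldown against the input of the same line asks how much of each mRNA was labelled near a bait. The members were mostly depleted: of 126 pairs of gene and bait, 84 (66.7%) were lower in the pulldown and 3 (2.38%) were higher (edgeR quasi-likelihood test, Benjamini-Hochberg adjusted p under 0.05 over all genes tested). Over all genes and baits 18.3% of pairs were lower and 16.2% higher. Both pulldowns lay under both inputs in 111 pairs and over both in 6, and the libraries overlapped in 9, where over all genes 33.2% of pairs were lower and 36.7% higher by that rule. The 3 higher pairs were DUSP5 with SRSF7 and DUSP5 and KLF6 with SRSF1. The 5 baits wholly in set II gave 24 lower and 3 higher of 45 pairs, and the other 9 gave 60 lower and 0 higher of 81. By bait, 9.21% to 22.5% of all genes were lower and 1.72% to 28.5% higher in the 5. In the other 9 the shares were 9.25% to 27.6% and 4.65% to 28.1%. Of the 84 lower calls, 67 passed the threshold whichever library was left out, and 17 were lost without at least 1 library, as named with each gene. Without the first inputs of FBL and NPAT together, 94 pairs were lower and 5 higher, beside 17% and 19.8% of all pairs.

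**Figure D1:**
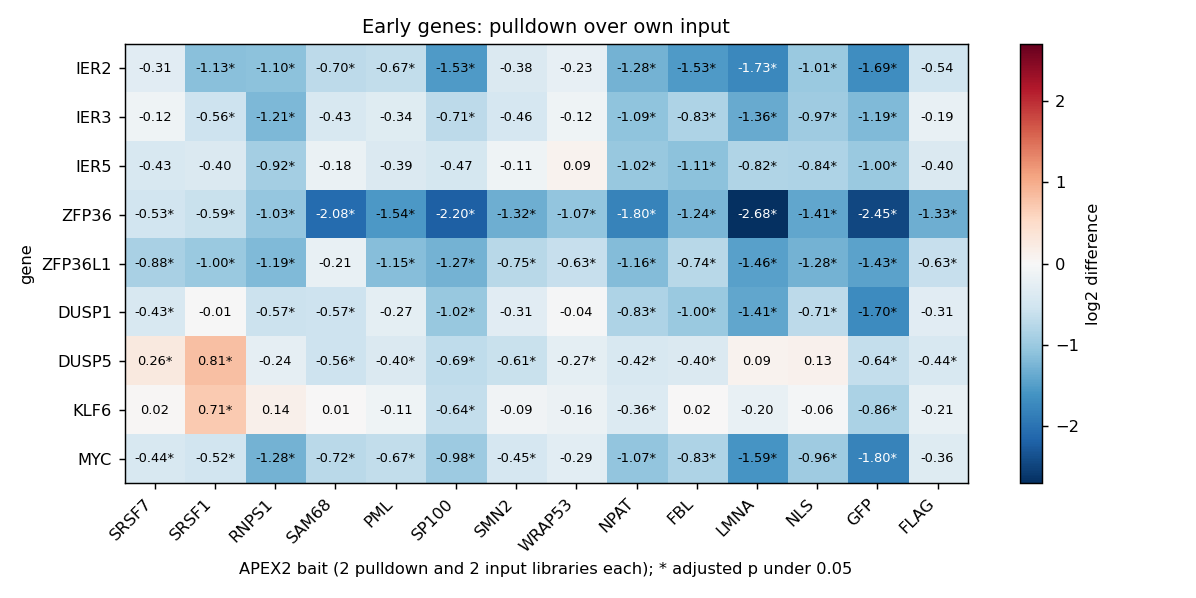
Log2 ratio of pulldown to own input for the 9 members (rows) in the 14 baits (columns), from 2 pulldown and 2 input libraries per bait, with an asterisk where the adjusted p is under 0.05. Most cells are negative, ZFP36 reaches -2.68 with LMNA, and the clearest positive values are DUSP5 (0.81) and KLF6 (0.71) with SRSF1.

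The 2 AU-rich element binding proteins were lower in more baits than the other members. ZFP36, also called tristetraprolin, was lower in 14 of 14 baits, with log2 ratios from -2.68 to -0.53 (median -1.37), and its pulldowns lay under its inputs in all 14. Across the 28 inputs it ran from 4.83 to 19.7 CPM (median 9.39) and across the 28 pulldowns from 1.29 to 6.93 CPM (median 3.53). The lamina bait gave the lowest level: ZFP36 was at 8.89 and 8.34 CPM in the LMNA inputs and at 1.38 and 1.29 CPM in the pulldowns, a log2 ratio of -2.68 ± 0.20 (SE, 2 libraries per group; adjusted p = 5.01e-13). The speckle baits gave the smallest gap. With SRSF7 the inputs held 10.2 and 9.64 CPM and the pulldowns 6.84 and 6.93 CPM, a log2 ratio of -0.53 ± 0.17 (adjusted p = 0.0106), a call that did not pass without SRSF7 input 1 (adjusted p = 0.0687) or pulldown 1 (adjusted p = 0.0688). In SAM68 pulldowns ZFP36 was at 1.89 and 2.36 CPM against inputs of 9.36 and 8.68 CPM (-2.08 ± 0.19), and in the NLS line at 3.91 and 3.47 against 10.1 and 9.53 CPM (-1.41 ± 0.18). The groups did not overlap in any of these lines, and every pulldown lay under the lowest of its inputs.

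ZFP36L1, a paralog that also directs decay of AU-rich mRNAs, was lower in 13 of 14 baits, with log2 ratios from -1.46 to -0.21 (median -1.08), and kept all 13 calls whichever library was left out. The exception was SAM68, where inputs of 52.1 and 44.2 CPM stood beside pulldowns of 42.7 and 40.6 CPM (-0.21 ± 0.13, adjusted p = 0.201). These were the highest pulldown levels of ZFP36L1 in any line, and they still lay under both SAM68 inputs. With LMNA the inputs were 32.3 and 32.1 CPM and the pulldowns 12.1 and 11.3 CPM, a log2 ratio of -1.46 ± 0.14 (adjusted p = 5.15e-11). With SRSF7 ZFP36L1 fell from 40.9 and 40.4 to 21.1 and 23.0 CPM (-0.88 ± 0.13, adjusted p = 1.16e-06), and with SRSF1 from 51.0 and 46.1 to 25.2 and 23.3 CPM (-1.0 ± 0.13, adjusted p = 5.72e-08). Unlike DUSP5 and KLF6, it was lower in the pulldowns of both SR protein baits.

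Among the IER genes, IER2 was lower in 10 baits, IER3 in 8 and IER5 in 6, and none was higher in any. IER2 had log2 ratios from -1.73 to -0.23 (median -1.06), and its pulldowns lay under its inputs in 14 of 14 lines. In the LMNA line IER2 was at 114.6 and 112.5 CPM in the inputs and 36.3 and 32.1 CPM in the pulldowns (-1.73 ± 0.21, adjusted p = 1.26e-08). The SR protein baits gave unequal values: with SRSF1 IER2 fell from 188.0 and 143.8 to 78.8 and 72.9 CPM (-1.13 ± 0.21, adjusted p = 1.89e-05), while with SRSF7 inputs of 142.5 and 136.2 CPM stood beside pulldowns of 109.6 and 115.5 CPM (-0.31 ± 0.21, adjusted p = 0.239). The IER2 call of PML was lost without any 1 of its 4 libraries (adjusted p = 0.0633 to 0.0811) and that of SAM68 without SAM68 input 1 (adjusted p = 0.0934).

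IER3 ran from 6.53 to 16.8 CPM in the inputs and 2.69 to 12.8 CPM in the pulldowns, with log2 ratios from -1.36 to -0.12 (median -0.63). It was at 9.98 and 9.36 CPM in the LMNA inputs and at 4.84 and 2.69 CPM in the pulldowns, so that the 2 pulldowns differed more from each other than the inputs did. In the FLAG line the inputs of IER3 were 14.3 and 14.6 CPM and the pulldowns 12.5 and 12.8 CPM (-0.19). Of its 8 lower calls 4 were lost on leaving out a library: FBL without pulldown 2 (adjusted p = 0.0933), NPAT without input 1 (adjusted p = 0.0821), SP100 without input 1 (adjusted p = 0.188) or pulldown 2 (adjusted p = 0.16), and SRSF1 without input 1 (adjusted p = 0.196), pulldown 1 (adjusted p = 0.108) or pulldown 2 (adjusted p = 0.128). IER5 had log2 ratios from -1.11 to 0.09 (median -0.45). It was at 66.4 and 70.6 CPM in the NLS inputs and 37.1 and 39.3 CPM in the pulldowns (-0.84), and at 60.0 and 58.7 against 62.8 and 63.7 CPM with WRAP53 (0.09), the line where both pulldowns lay over both inputs. Its largest depletion rested on an input that stood apart: FBL inputs of 123.8 and 63.4 CPM gave -1.11, and without FBL input 1 the ratio was -0.55 (adjusted p = 0.057). Likewise NPAT inputs of 131.3 and 64.8 CPM gave -1.02, and -0.42 (adjusted p = 0.145) without NPAT input 1.

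Of the 2 MAP kinase phosphatases, DUSP1, a nuclear phosphatase of ERK, p38 and JNK, was lower in 9 baits and higher in none, with log2 ratios from -1.70 to -0.01 (median -0.57). In the GFP line DUSP1 was at 48.8 and 45.9 CPM in the inputs and 13.3 and 16.0 CPM in the pulldowns (-1.70 ± 0.15, adjusted p = 2.52e-11). In the SRSF1 line inputs of 73.3 and 69.3 CPM stood beside pulldowns of 70.6 and 70.9 CPM, a ratio of -0.01 ± 0.14 (adjusted p = 0.96) with overlapping libraries. With SRSF7 it fell from 56.1 and 52.9 to 39.6 and 41.5 CPM (-0.43 ± 0.14, adjusted p = 0.0165), a call that was lost without SRSF7 input 1 (adjusted p = 0.102) or pulldown 1 (adjusted p = 0.11).

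DUSP5, a nuclear phosphatase of ERK, was lower in 9 baits and higher in 2, with log2 ratios from -0.69 to 0.81 (median -0.40). With SRSF1 it rose from 60.4 and 60.5 CPM in the inputs to 109.4 and 102.0 CPM in the pulldowns, a log2 ratio of 0.81 ± 0.10 (adjusted p = 6.37e-09). With SRSF7 it rose from 51.6 and 58.2 to 64.6 and 66.9 CPM (0.26 ± 0.10, adjusted p = 0.0284), and this call was lost without SRSF7 input 1 (adjusted p = 0.279), pulldown 1 (adjusted p = 0.0708) or pulldown 2 (adjusted p = 0.121). In both lines the pulldowns lay over the inputs. The lamina and NLS lines gave values near 0: LMNA inputs of 45.3 and 39.5 CPM and pulldowns of 46.5 and 44.0 CPM (0.09 ± 0.10, adjusted p = 0.428), and NLS inputs of 58.9 and 58.0 CPM and pulldowns of 64.8 and 62.8 CPM (0.13 ± 0.10, adjusted p = 0.399). The opposite was seen with SP100, where DUSP5 fell from 73.0 and 75.9 to 45.9 and 46.7 CPM (-0.69). The lower calls of FLAG (without pulldown 2, adjusted p = 0.0696), PML (without pulldown 2, adjusted p = 0.136) and WRAP53 (without input 1, adjusted p = 0.0873, input 2, adjusted p = 0.28, or pulldown 1, adjusted p = 0.429) were lost on leaving out a library.

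Of the transcription factors, KLF6, a zinc finger protein that binds GC-rich DNA, had the median ratio nearest to 0. It was lower in 3 baits (SP100, NPAT and GFP) and higher in 1, with log2 ratios from -0.86 to 0.71 (median -0.10). With SRSF1 KLF6 rose from 57.7 and 58.3 to 94.4 and 95.8 CPM (0.71 ± 0.11, adjusted p = 1.61e-06). With SRSF7 it was at 53.2 and 51.4 CPM in the inputs and 53.3 and 53.0 CPM in the pulldowns (0.02 ± 0.11). In the GFP line it fell from 48.6 and 50.4 to 23.1 and 31.6 CPM (-0.86 ± 0.12, adjusted p = 1.17e-07) and in the SP100 line from 94.5 and 86.1 to 54.3 and 61.4 CPM (-0.64 ± 0.11, adjusted p = 4.07e-05). The NPAT call (-0.36) was lost without NPAT input 1 (adjusted p = 0.0951) or pulldown 1 (adjusted p = 0.167).

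MYC, which heterodimerises with MAX and drives growth genes, was lower in 12 baits and higher in none, with log2 ratios from -1.80 to -0.29 (median -0.78) and pulldowns under inputs in 14 of 14 lines. It was at 221.1 and 215.4 CPM in the GFP inputs and 53.1 and 72.6 CPM in the pulldowns (-1.80 ± 0.15, adjusted p = 3.1e-12). In the LMNA line MYC fell from 118.4 and 121.7 to 45.7 and 33.9 CPM (-1.59 ± 0.15, adjusted p = 3e-11). The SR protein baits gave smaller differences: SRSF7 inputs of 130.1 and 135.2 CPM and pulldowns of 93.1 and 102.6 CPM (-0.44 ± 0.14, adjusted p = 0.012), and SRSF1 inputs of 199.3 and 172.1 CPM and pulldowns of 131.3 and 127.4 CPM (-0.52 ± 0.14, adjusted p = 0.00217). Calls were lost for SRSF7 without input 2 (adjusted p = 0.0671) or pulldown 1 (adjusted p = 0.123), for SRSF1 without input 1 (adjusted p = 0.0525) and for SMN2 without input 2 (adjusted p = 0.224) or pulldown 1 (adjusted p = 0.251). The uncalled lines were WRAP53, with inputs of 102.7 and 96.5 and pulldowns of 81.6 and 81.7 CPM, and FLAG, with inputs of 98.2 and 89.1 and pulldowns of 71.9 and 74.4 CPM.

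**Figure D2:**
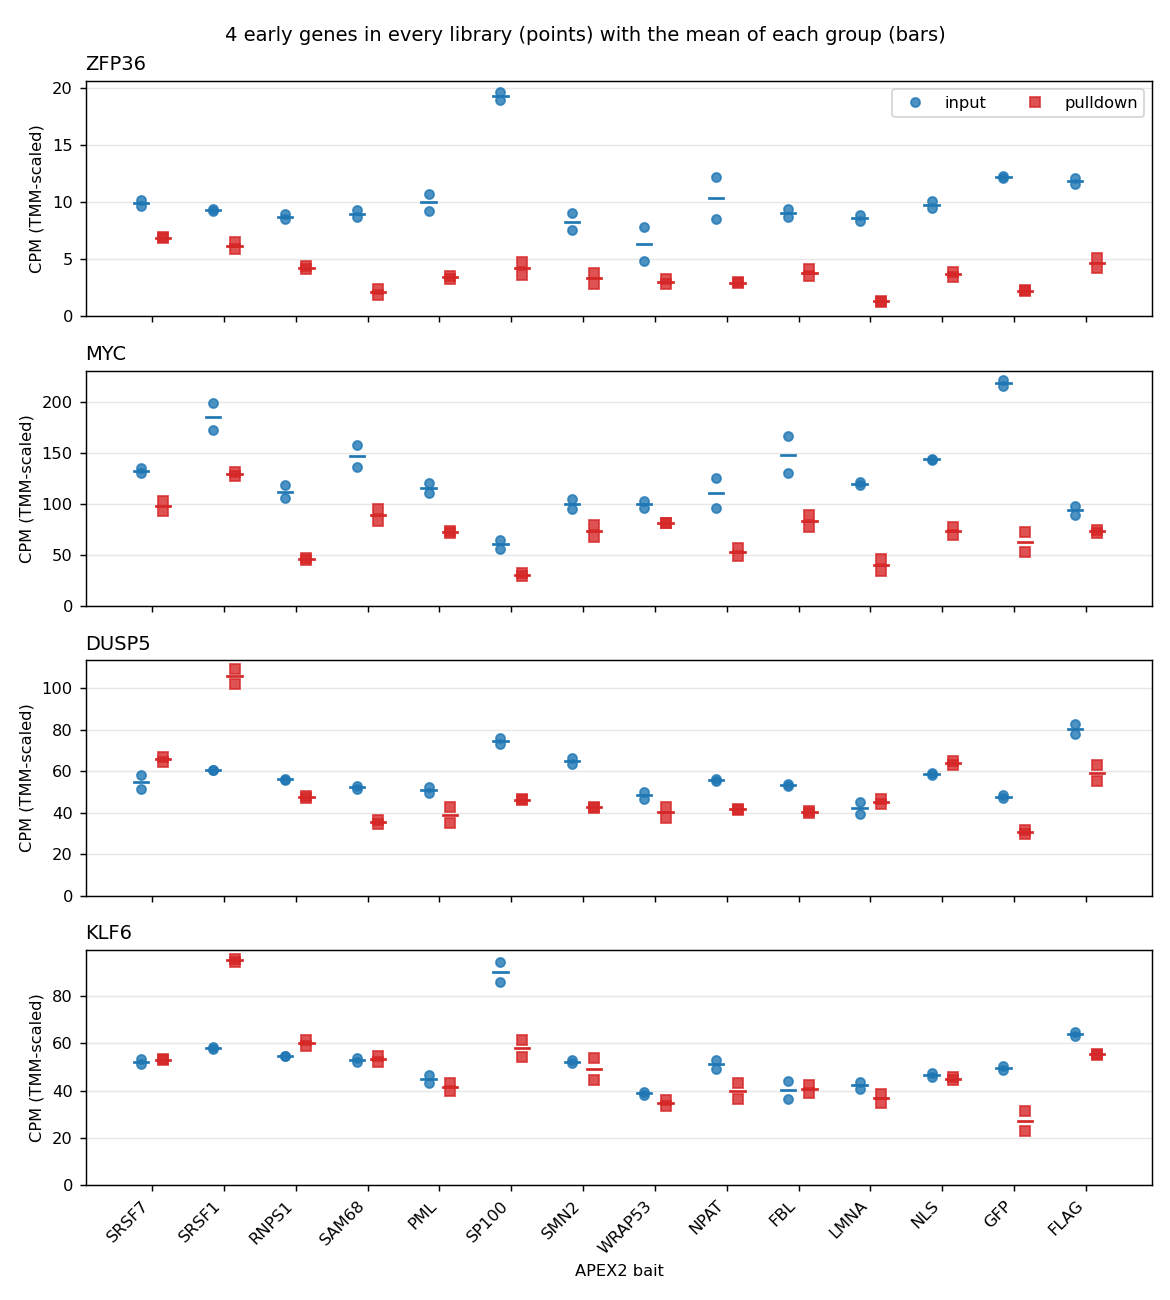
TMM-scaled CPM (y axis) of ZFP36, MYC, DUSP5 and KLF6 in each input (blue circles) and pulldown (red squares) library of the 14 baits, with bars at the mean of each pair. ZFP36 pulldowns (1.29 to 6.93 CPM) lie under the inputs of every line, while DUSP5 and KLF6 pulldowns of SRSF1 lie over theirs.

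Counted by bait, the depletion reached all 9 members with NPAT and GFP, where 23.4% and 27% of all genes were lower. With NPAT 3 of these calls, IER3, IER5 and KLF6, rested on NPAT input 1, without which 6 members were lower, and 7 were with the first inputs of both NPAT and FBL left out. With SP100 and FBL 8 members were lower, beside 16.5% and 20.8% of all genes, and FBL gave 7 without FBL input 1. With RNPS1, LMNA and NLS 7 members were lower, beside 17.9%, 27.6% and 14.5%. With SRSF1, SAM68 and PML 5 were lower, beside 22.5%, 22% and 15.1%. With SRSF7 and SMN2 4 were lower, beside 19.8% and 10.5%, and with WRAP53 and FLAG 3 were lower, beside 9.25% and 9.21%. The higher members were 1 with SRSF7, where 20.5% of all genes were higher, and 2 with SRSF1, where 28.5% were. The members' median log2 ratio ran from -1.43 (GFP) and -1.41 (LMNA) to -0.23 (WRAP53), while the median of all genes lay between -0.01 (FLAG) and 0.28 (SRSF1). Gene span moves with this count: among the 3962 other genes with a span under 10 kb, 57.7% were lower with LMNA, 58.4% with GFP, 47.6% with NPAT, 28.2% with NLS and 20.8% with FLAG, and the part of span in the members' depletion was not tested.

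The scaling of the libraries bears on the SR protein baits and, the other way, on SAM68. Scaled by total counts in place of TMM, the median ratio of all genes moved to 0.42 with SRSF7, 0.58 with SRSF1 and 0.25 with NLS, and the genes called were 7153 higher and 2737 lower with SRSF7 and 9271 and 3510 with SRSF1, in place of 4856 and 4687 and of 6749 and 5322. With SAM68 the median moved from 0.03 to -0.19, and 3632 genes were higher and 7089 lower in place of 4991 and 5219. There IER3 (-0.66, adjusted p = 0.0204) and ZFP36L1 (-0.44, adjusted p = 0.00408) then passed as lower. The ratios of ZFP36 (-0.28), MYC (-0.19) and DUSP1 (-0.18) with SRSF7 and of ZFP36 (-0.29), MYC (-0.22) and IER3 (-0.25) with SRSF1 then did not pass, though each stayed negative and lay under the median of all genes. Calls of KLF6 with NPAT (-0.21), IER3 with SP100 (-0.59) and DUSP5 with WRAP53 (-0.21) were lost too. The same 6 calls with the SR protein baits were lost when only genes with a mean of at least 5 CPM were kept. ZFP36L1 with both baits and IER2 with SRSF1 passed under either setting, as did DUSP5 and KLF6 with SRSF1.

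Differences between baits were then tested for each gene over all 14 ratios at once. All 9 members differed between baits, beside 66.9% of all genes, with DUSP5 (adjusted p = 3.31e-11), ZFP36 (5.69e-09), DUSP1 (2.74e-08), MYC (7.11e-08) and KLF6 (8.99e-08) lowest in p. Within the 5 baits of set II, which share their library set, 4 members differed beside 44.1% of all genes: DUSP5 (adjusted p = 2.53e-09), KLF6 (5.26e-05), ZFP36 (0.000501) and ZFP36L1 (0.0324). The call of ZFP36L1 was lost without FLAG input 1 (adjusted p = 0.132), FLAG pulldown 1 (adjusted p = 0.121), NLS input 2 (adjusted p = 0.0741), NLS pulldown 1 (adjusted p = 0.0539), NLS pulldown 2 (adjusted p = 0.0725), PML input 1 (adjusted p = 0.0506) or PML pulldown 2 (adjusted p = 0.0501). DUSP1 (adjusted p = 0.059), MYC (0.0786), IER2 (0.0921), IER3 (0.155) and IER5 (0.584) did not pass in this set. In set II DUSP5 ran from -0.44 with FLAG to 0.81 with SRSF1, KLF6 from -0.21 with FLAG to 0.71 with SRSF1, and ZFP36 from -1.54 with PML to -0.53 with SRSF7. Fitted without the other 36 libraries, the 20 libraries of these 5 baits gave 33 lower and 3 higher pairs. All 9 members then differed between the 5 baits, as they also did without the first inputs of FBL and NPAT. The shares of all genes were not counted in the fit of 20 libraries, nor for the test between 5 baits in either fit.

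Each ratio other than that of GFP was also set against that of NLS, taken as the reference construct. These were 12 baits and the mean of 3 of them (SRSF7, SRSF1 and RNPS1). Of 117 pairs in the 13 comparisons, which share the NLS libraries, 12 were higher and 9 lower, beside 5.71% and 4.03% of all pairs. NLS's own ratio was lower for 7 of the 9. Of these calls 5 higher and 4 lower held whichever library was left out. Leaving out 1 NLS library gave 6 higher and 5 lower (input 1), 7 and 4 (input 2), 7 higher (pulldown 1), or 6 and 5 (pulldown 2), and leaving out the first inputs of FBL and NPAT gave 36 and 14, beside 10.6% and 5.93% of all pairs. The speckle baits accounted for 5 higher calls, plus 1 for the mean of SRSF7, SRSF1 and RNPS1. ZFP36 was less depleted with SRSF7 than with NLS by 0.88 ± 0.24 (log2, adjusted p = 0.00853, beside 11.7% of all genes higher). With SRSF1, where 13.6% of genes were higher, DUSP5 (0.68 ± 0.14, adjusted p = 0.000259), KLF6 (0.77 ± 0.16, 0.000436), DUSP1 (0.70 ± 0.20, 0.0107) and ZFP36 (0.81 ± 0.24, 0.0127) were higher. The ZFP36 call with SRSF1 was lost without NLS pulldown 2 (adjusted p = 0.0663) or SRSF1 pulldown 2 (adjusted p = 0.0608). The speckle mean was higher for ZFP36 alone (0.69 ± 0.20, adjusted p = 0.0116, beside 11.5% of genes), and this was lost without NLS input 1 (adjusted p = 0.0619) or NLS pulldown 2 (adjusted p = 0.0952).

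Opposite values came from SAM68. ZFP36L1 was higher than with NLS by 1.07 ± 0.19 (adjusted p = 3.07e-05, beside 12% of genes), while DUSP5 was lower by a log2 difference of -0.68 ± 0.14 (adjusted p = 0.000218, beside 7.8%). Scaled by total counts, the median of all genes in this comparison moved from 0.004 to -0.42, 6.78% of genes were higher and 23.8% lower, and the values were 0.64 for ZFP36L1 and -1.12 for DUSP5, both past the threshold, with ZFP36 (-1.10) now passing as lower. DUSP5 was also lower with SP100 (-0.81 ± 0.14, adjusted p = 0.000804, beside 1.21% of genes) and SMN2 (-0.74 ± 0.14, adjusted p = 0.000627, beside 2.1%). With NPAT it was lower at -0.55 (beside 3.05% of genes) and with FLAG at -0.57 (beside 0.65%). The NPAT call was lost without any 1 NLS library (adjusted p = 0.0568 to 0.0746) or NPAT input 1 (adjusted p = 0.0653), and the FLAG call without FLAG input 1 (adjusted p = 0.112), FLAG pulldown 2 (adjusted p = 0.121), NLS input 1 (adjusted p = 0.0648), NLS input 2 (adjusted p = 0.0714) or NLS pulldown 1 (adjusted p = 0.0906). KLF6 with SP100 (-0.59, adjusted p = 0.0476) was lost without any of 7 libraries, all but SP100 pulldown 2 (adjusted p = 0.12 to 0.245), and in the comparison of pulldowns alone KLF6 was higher with SP100 than with NLS (0.36, adjusted p = 0.0154). DUSP5 was below NLS in as many as 5 baits, in 3 of them whichever library was left out.

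The lamina bait was lower than NLS for ZFP36 (-1.28 ± 0.27, adjusted p = 0.00148), DUSP1 (-0.70 ± 0.21, 0.0186) and MYC (-0.63 ± 0.20, 0.0295), beside 8.56% of all genes. The DUSP1 call was lost without LMNA input 2 (adjusted p = 0.0558), LMNA pulldown 2 (adjusted p = 0.204), NLS input 2 (adjusted p = 0.0654) or NLS pulldown 2 (adjusted p = 0.0753). The MYC call was lost without either LMNA input (adjusted p = 0.0708 and 0.0757), LMNA pulldown 2 (adjusted p = 0.232), either NLS input (adjusted p = 0.0815 and 0.0761) or NLS pulldown 2 (adjusted p = 0.132), while the ZFP36 call held throughout. LMNA pulldowns belong to set III and NLS pulldowns to set II, so set and bait cannot be told apart here. WRAP53 was higher than NLS for IER5 (0.93), MYC (0.68), DUSP1 (0.67) and ZFP36L1 (0.66), beside 5.22% of genes, and FLAG for ZFP36L1 (0.66, beside 2.04%). These 5 calls had adjusted p from 0.0258 to 0.0465. The WRAP53 inputs belong to set I and the NLS inputs to set II. With pulldowns alone, MYC (0.15, adjusted p = 0.471) and DUSP1 (0.25, adjusted p = 0.199) did not pass with WRAP53, while IER5 and ZFP36L1 passed as higher. DUSP1 and IER5 with WRAP53 were lost without any 1 of the 8 libraries (adjusted p = 0.0711 to 0.142), as was ZFP36L1 with FLAG (adjusted p = 0.0739 to 0.26). MYC with WRAP53 was lost without any but NLS pulldown 2 (adjusted p = 0.0671 to 0.147), and ZFP36L1 without any but WRAP53 pulldown 1 (adjusted p = 0.0562 to 0.101).

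Pulldowns were compared with the NLS pulldowns directly for the 11 baits whose pulldowns are in set II, a comparison that leaves out the inputs and so carries differences in RNA level between lines. Of 99 pairs, 33 were higher and 13 lower, beside 12.8% and 11.9% of all pairs. The SR protein baits held 15 of the higher pairs. With SRSF1 8 of 9 members were higher, beside 19% of all genes and 34.5% of the other genes with a span under 10 kb. They were led by DUSP1 (1.41 ± 0.15, adjusted p = 1.34e-09) and KLF6 (1.08 ± 0.11, 1.65e-09), and IER2 did not pass (0.39, adjusted p = 0.152). DUSP1 was at 70.6 and 70.9 CPM in SRSF1 pulldowns against 25.9 and 27.4 CPM in NLS pulldowns, and KLF6 at 94.4 and 95.8 against 44.3 and 45.7 CPM. With SRSF7 7 members were higher, beside 19% of all genes and 32.5% of the other genes under 10 kb. They were led by IER2 (0.96 ± 0.21, adjusted p = 0.000436) and ZFP36 (0.90 ± 0.18, 0.000131). The part of span in these differences was not tested. IER2 was at 109.6 and 115.5 CPM in SRSF7 pulldowns against 55.9 and 59.6 CPM in NLS pulldowns. In each of these 3 examples the groups did not overlap. Without NLS pulldown 1 the count of higher pairs was 17 and without NLS pulldown 2 it was 21, and 16 of the 33 held whichever library was left out. Without the first inputs of FBL and NPAT, which enter here through the shared spread, the filter and the scaling, 43 pairs were higher and 13 lower, beside 17.3% and 14.5% of all pairs.

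The SAM68 pulldown again set ZFP36L1 and DUSP5 apart. ZFP36L1 was at 42.7 and 40.6 CPM there against 15.8 and 15.2 CPM with NLS, a log2 difference of 1.42 ± 0.14 (adjusted p = 4.05e-11). IER3 was also higher (0.63, adjusted p = 0.0347), beside 17.9% of genes, but lost its call without either SAM68 or either NLS pulldown (adjusted p = 0.0711 to 0.183). DUSP5 (-0.85 ± 0.10, adjusted p = 3.73e-09) and ZFP36 (-0.79 ± 0.20, 0.00157) were lower, beside 17.6% of genes. Scaled by total counts, 9.79% of genes were higher and 36.4% lower (median -0.45), the differences were 0.99 for ZFP36L1, -1.28 for DUSP5 and -1.22 for ZFP36, all past the threshold, and IER3 did not pass (0.20, adjusted p = 0.527). DUSP5 was at 34.6 and 36.2 CPM against 64.8 and 62.8 CPM, and it was lower than with NLS in 8 of the 11 baits, those other than SRSF7, SRSF1 and FLAG. With SP100 IER3, IER5, DUSP1 and KLF6 were higher, by 0.36 to 0.70 (beside 12.2% of genes), and MYC (-1.27 ± 0.15, adjusted p = 5.78e-08) and DUSP5 (-0.46) lower (beside 15.7%). All 4 of the higher SP100 calls were lost without NLS pulldown 1 (adjusted p = 0.055 to 0.107), and those of IER3, IER5 and KLF6 also without NLS pulldown 2 (adjusted p = 0.147, 0.0593 and 0.0594) or a SP100 pulldown (adjusted p = 0.238, 0.101 and 0.147). The SP100 inputs were also the lowest of any line for MYC, at 65.1 and 56 CPM against a median of 121.1 CPM over all inputs. ZFP36L1 was higher in the SAM68 inputs (mean 48.1 CPM) than in the NLS inputs (37.8 CPM). Its ratio to own input was higher with SAM68 than with NLS by 1.07, less than the difference of the pulldowns.

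Across the 11 baits IER5, DUSP1 and ZFP36L1 were higher in 6 and lower in 0, IER3 was higher in 5 and lower in 0, and IER2 higher in 2 and lower in 0. KLF6 was higher in 3 and lower in 1, ZFP36 higher in 2 and lower in 1, MYC higher in 2 and lower in 3, and DUSP5 higher in 1 and lower in 8. The LMNA and GFP pulldowns, both of set III, were compared with each other after the values had been seen. Lower with LMNA were ZFP36 (-0.74 ± 0.22, adjusted p = 0.026), MYC (-0.66 ± 0.14, 0.00239) and ZFP36L1 (-0.42 ± 0.14, 0.044), beside 4.24% of genes. Higher with LMNA were DUSP5 (0.57 ± 0.10, adjusted p = 0.00018) and KLF6 (0.43 ± 0.12, 0.0131), beside 6.78%. ZFP36 was at 1.38 and 1.29 CPM with LMNA and 2.20 and 2.28 CPM with GFP, and DUSP5 at 46.5 and 44.0 against 29.5 and 31.6 CPM, with no overlap in either. In the inputs of the same lines MYC was higher with GFP, at 221.1 and 215.4 CPM, than with LMNA, at 118.4 and 121.7 CPM. Mean inputs of GFP and LMNA were 12.2 and 8.62 CPM for ZFP36 and 42.3 and 32.2 CPM for ZFP36L1. They were 47.6 and 42.4 CPM for DUSP5 and 49.5 and 42.2 CPM for KLF6. The part of input level in the pulldown differences was not tested. The GFP pulldowns differed most from each other among the pulldown pairs (chi-square per degree of freedom 54.0).

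**Figure D3:**
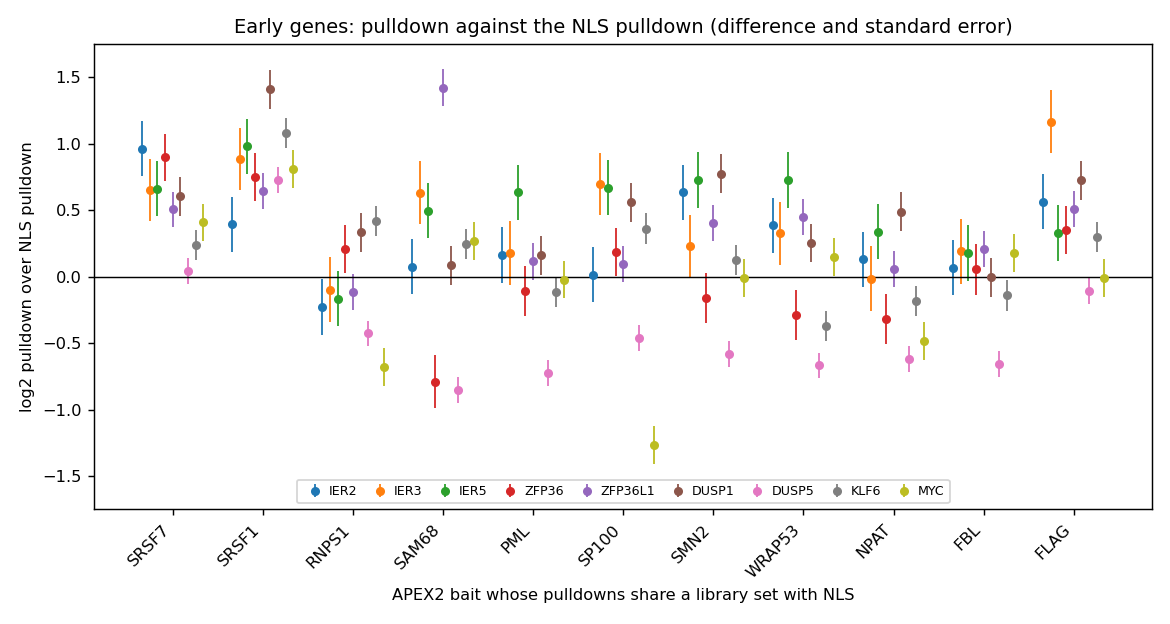
Log2 difference between the pulldowns of a bait and the NLS pulldowns for the 9 members (points, bars are standard errors) in the 11 baits whose pulldowns share a set with NLS. DUSP1 with SRSF1 (1.41) and ZFP36L1 with SAM68 (1.42) are the highest, and MYC with SP100 (-1.27) is the lowest.

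The inputs were compared to ask how the members' total RNA differed between lines. Each input pair was set against the mean of the other 13 lines: of 126 pairs, 18 were higher and 13 lower, beside 5.49% and 4.12% of all pairs. Against only the lines of the same set the counts were 21 and 13, beside 5.12% and 3.82%. The SP100 line stood out. There KLF6 (0.87 ± 0.08, adjusted p = 3.69e-11), ZFP36 (1.04 ± 0.11, 6.14e-09), DUSP1 (0.72 ± 0.10, 1.3e-06), DUSP5 (0.43 ± 0.07, 1.36e-05) and IER2 (0.43, 0.0401) were higher, beside 6.6% of genes, and MYC was lower (-1.09 ± 0.12, adjusted p = 5.32e-09, beside 7.37%). ZFP36 was at 19.7 and 19.0 CPM in the SP100 inputs, above every other input, the next being 12.3 CPM in the GFP line. KLF6 was at 94.5 and 86.1 CPM there, and MYC at 65.1 and 56 CPM, below every other input. The IER2 call was lost without either SP100 input (adjusted p = 0.579 and 0.0855).

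In the SRSF1 line IER2 (0.40), IER3 (0.50), IER5 (0.43), ZFP36L1 (0.41), DUSP1 (0.55, adjusted p = 3.53e-05) and MYC (0.65, 2.34e-06) were higher. Beside them 21.8% of all genes were higher and 18.4% lower, and 40.9% of the other genes with a span under 10 kb were higher. Scaled by total counts, 7.91% of genes were higher and 26.6% lower. IER2 (0.20, adjusted p = 0.331), IER3 (0.30, 0.147), IER5 (0.23, 0.244) and ZFP36L1 (0.21, 0.0711) then did not pass, while DUSP1 and MYC did. Without SRSF1 input 1 IER2 (adjusted p = 0.559), IER3 (adjusted p = 0.213), IER5 (adjusted p = 0.251) and ZFP36L1 (adjusted p = 0.0673) lost their calls, and IER5 also without input 2 (adjusted p = 0.0513). In the WRAP53 line ZFP36 (-0.69), DUSP1 (-0.66), IER2 (-0.57) and KLF6 (-0.43) were lower, beside 1.53% of genes. Without WRAP53 input 1 ZFP36 (adjusted p = 0.494), DUSP1 (adjusted p = 0.103), IER2 (adjusted p = 0.568) and KLF6 (adjusted p = 0.119) lost their calls, and IER2 (adjusted p = 0.312) and KLF6 (adjusted p = 0.192) also without input 2. The GFP line was higher for MYC (0.90 ± 0.10, adjusted p = 2.05e-08, beside 4.24% of genes) and lower for DUSP5 (-0.26, beside 2.76%), the latter lost without either GFP input (adjusted p = 0.24 and 0.35). The FLAG line was higher for DUSP5 (0.55 ± 0.07, adjusted p = 3.16e-07) and KLF6 (0.33), beside 3.46%, and lower for MYC (-0.41, beside 2.72%), and the KLF6 and MYC calls were lost without either FLAG input (adjusted p = 0.127 to 0.4). The LMNA line was lower for DUSP1 (-0.55), DUSP5 (-0.44) and KLF6 (-0.31), beside 1.05% of genes. DUSP1 was lower in the PML line (-0.51), beside 1.62%. ZFP36L1 was higher in the SAM68 line (0.40, beside 0.946%) and MYC in the FBL line (0.30, beside 16.5%). Each of these calls was lost without at least 1 input of its line. Over all lines 8 of the 18 higher and 1 of the 13 lower calls held whichever library was left out. The level of IER2 in FBL (231.2 and 119.6 CPM) passed as higher (0.49) only with FBL input 1, and was -0.065 without it. Without the first inputs of FBL and NPAT together 26 pairs were higher and 19 lower, beside 5.85% and 4.89% of all pairs. The calls of DUSP1 in NPAT (0.44, then 0.12), KLF6 in FBL (-0.38, then -0.25) and ZFP36L1 in FBL (-0.34, then -0.08) then did not pass.

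**Figure D4:**
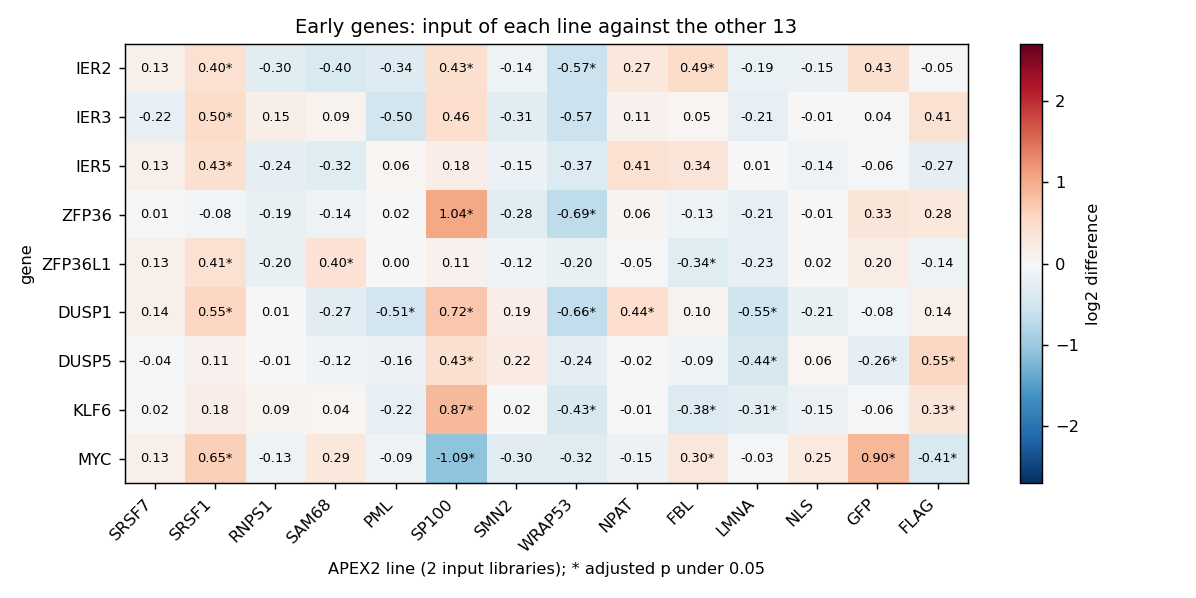
Log2 difference of the input of each line (columns, 2 libraries) from the mean of the other 13 lines for the 9 members (rows), with an asterisk where the adjusted p is under 0.05. The SP100 column holds the largest positive value (ZFP36, 1.04) and the largest negative one (MYC, -1.09).

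Ordered by mean input, WRAP53 was the lowest line for IER2 (88.6 ± 7.8 CPM, SD, n = 2), IER3, IER5, ZFP36, DUSP1 (32.5 ± 2.0 CPM) and KLF6 (39.0 ± 0.84 CPM). The highest lines were SP100 for ZFP36, DUSP1 (79.4 ± 4.5 CPM) and KLF6 (90.3 ± 6.0 CPM), SRSF1 for IER3, IER5 and ZFP36L1, FLAG for DUSP5 (80.3 ± 3.2 CPM) and GFP for MYC (218.2 ± 4.0 CPM). FBL was highest for IER2 (175 ± 79 CPM), with 1 input at 231.2 and 1 at 119.6 CPM. Neighbours in these orders mostly overlapped: of 13 neighbouring pairs of lines, the libraries were separate in 2 for IER2, IER3 and IER5, 3 for ZFP36 and ZFP36L1, 5 for KLF6 and MYC and 6 for DUSP1 and DUSP5. In the pulldowns LMNA was the lowest line for IER2, IER3, ZFP36, ZFP36L1 (11.7 CPM) and DUSP1 (13.2 CPM), GFP for DUSP5 (30.6 CPM) and KLF6 (27.4 CPM), RNPS1 for IER5 and SP100 for MYC (30.7 CPM). SRSF1 was the highest for IER5, DUSP1 (70.8 CPM), DUSP5, KLF6 (95.1 CPM) and MYC, SRSF7 for IER2 and ZFP36 (6.89 CPM), SAM68 for ZFP36L1 (41.6 CPM) and FLAG for IER3. Separate neighbours in the pulldowns numbered from 3 (IER5) to 9 (DUSP1) of 13. Neither for inputs nor for pulldowns was the share of separate neighbours counted over all genes, so these counts describe the members only.

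The second table compared poly(A) with ribosome-depleted libraries of the SRSF7 pulldown, TMM-scaled within that table. Of the 9 members 5 were higher in poly(A) and 1 lower, beside 27.3% and 26.5% of 18641 genes tested. ZFP36 rose from 3.35 and 3.72 to 8.17 and 7.96 CPM (1.19 ± 0.18, adjusted p = 5.37e-06), IER2 from 42.9 and 40.7 to 63.6 and 75.3 CPM (0.73 ± 0.10, 7.03e-07), and IER5 from 36.2 and 35.7 to 50.9 and 64.3 CPM (0.68 ± 0.11, 7.95e-06). ZFP36L1 (0.61 ± 0.14, adjusted p = 0.000507) and MYC (0.53 ± 0.09, 1.88e-05) rose as well, from 10.5 and 13.1 to 16.9 and 19.3 CPM and from 57.5 and 66.5 to 87.7 and 92.0 CPM. DUSP5 was the one member that fell, from 43.7 and 50.8 to 31.2 and 30.8 CPM (-0.61 ± 0.11, adjusted p = 2.63e-05). In these 6 genes, which are the ones called, the 2 poly(A) libraries lay on one side of both ribosome-depleted ones. The share of all genes separated in this way was not counted. DUSP1 (16.3 and 17.3 against 15.1 and 18.4 CPM, -0.01 ± 0.13), KLF6 (31.2 and 40.1 against 33.7 and 39.1 CPM, 0.03 ± 0.12) and IER3 (3.74 and 4.44 against 4.37 and 6.06 CPM, 0.34 ± 0.21, adjusted p = 0.178) did not pass. Libraries overlapped for these 3 genes. All 6 calls passed whichever of the 4 libraries was left out, but such a fit takes its spread from the 1 remaining pair and assumes that the lone library varies alike. Scaled by total counts the median of all genes was 0.16 in place of 0.03, and the same 5 and 1 members passed beside 34.6% higher and 21.5% lower. Among the other genes with a span under 10 kb, 57.5% were higher and 5.65% lower, and the part of span in the members' values was not tested.

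**Figure D5:**
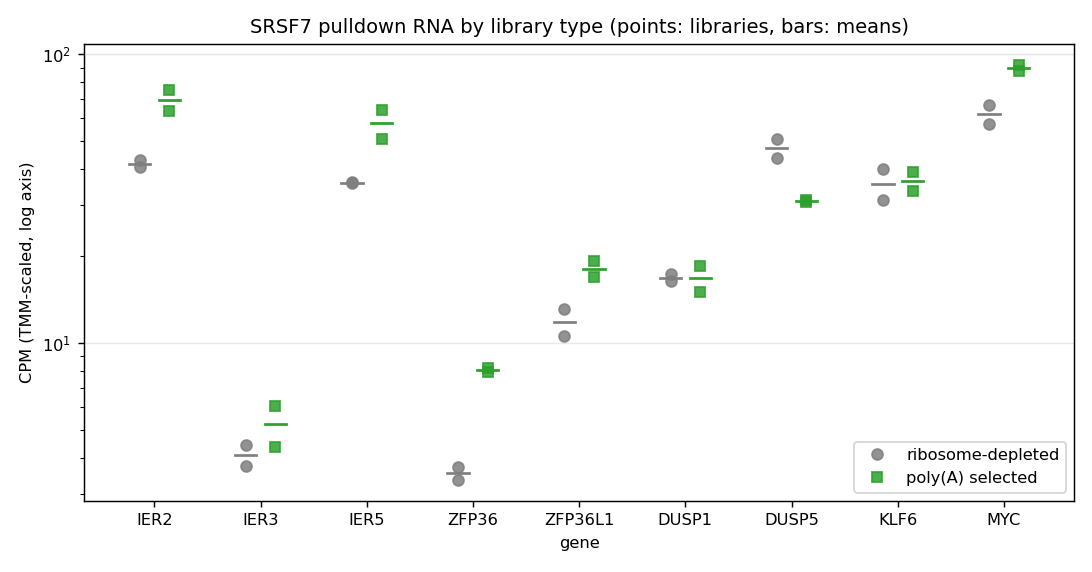
TMM-scaled CPM of the 9 members in 2 ribosome-depleted and 2 poly(A) libraries of the SRSF7 pulldown on a log axis, with bars at the means. Both poly(A) libraries lie above the ribosome-depleted ones for ZFP36 (8.17 and 7.96 against 3.35 and 3.72 CPM) and below them for DUSP5.

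The members' partners and relatives were counted in the same ratios of pulldown to own input. Of 25 other immediate early genes, in 350 pairs, 21 pairs (6%) were higher and 201 (57.4%) lower, beside 16.2% and 18.3% of all pairs. With SRSF7 8 of them were higher and 9 lower (median 0.27), with GFP 0 and 23 (median -1.24), and with SP100 0 and 22 (median -1.26). FOSB, a FOS family partner of JUN, ran from -2.60 with SP100 to 1.11 ± 0.19 with SRSF7, and EGR3, a zinc finger factor, from -2.62 with SP100 to 1.71 ± 0.26 with SRSF7. JUN itself fell with SP100 (-1.92) and did not pass at its highest value, with SRSF7 (0.35). In poly(A) libraries 15 of 24 of these genes were higher and 3 lower, beside 27.3% and 26.5% of all genes and 57.5% and 5.65% of genes under 10 kb.

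Of the 14 other MAP kinase feedback genes tested, in 196 pairs, 21 (10.7%) were higher and 77 (39.3%) lower. The shares of all pairs, here and for the next 2 lists, were 16.2% and 18.3%. DUSP10, a phosphatase of p38 and JNK, ran from -0.65 with SP100 to 1.86 ± 0.21 with SRSF1, DUSP16, a JNK phosphatase, from -0.35 with SRSF7 to 0.41 with SAM68, and SPRED1, an inhibitor of RAS signalling, from -0.11 with SP100 to 1.28 with SAM68. The ERK cascade itself gave 55 higher (18.7%) and 94 lower (32%) of 294 pairs. ARAF, a RAF kinase of this cascade, ran from -1.51 with GFP to 0.50 with SRSF7. The machinery of ZFP36 and ZFP36L1, AU-rich element binding and mRNA decay factors, gave 61 higher (17.4%) and 99 lower (28.3%) of 350 pairs. PAN2, a poly(A) nuclease, ran from -0.94 with GFP to 2.78 ± 0.13 with RNPS1, EXOSC10, an exosome nuclease, from -0.67 with GFP to 0.91 with SRSF7, and EDC4, a scaffold of mRNA decapping, from -1.43 with LMNA to 0.37 with RNPS1.

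The KLF and SP family, relatives of KLF6, gave 24 higher (10.7%) and 99 lower (44.2%) of 224 pairs, beside 16.2% and 18.3% of all pairs. KLF13 ran from -1.72 ± 0.15 with SRSF1 to 0.22 with WRAP53, which did not pass, SP1 from -1.06 with SRSF7 to 0.78 with SAM68, and KLF9 from -0.88 with RNPS1 to 0.64 with SAM68. The MYC network gave 27 higher (13.8%) and 68 lower (34.7%) of 196 pairs, beside the same shares of all pairs. MXD3, a MAX partner that opposes MYC, ran from -1.16 with NPAT to 1.0 with SRSF7, MYCL, a MYC paralog, from -1.30 with LMNA to 0.44 with SMN2, which did not pass, and MGA, another MAX partner, from -0.65 with SRSF7 to 0.54 with SMN2. MYC target genes gave 25 higher (10.5%) and 97 lower (40.8%) of 238 pairs, again beside 16.2% and 18.3% of all pairs. NOP56, a nucleolar protein of snoRNPs, ran from -0.62 with GFP to 1.94 ± 0.16 with SRSF1, NPM1, a nucleolar chaperone, from -1.24 with SRSF1 to 0.64 with SP100, and CAD, an enzyme of pyrimidine synthesis, from -1.0 with LMNA to 0.37 with RNPS1. In poly(A) libraries 12 of 17 MYC target genes were higher and 2 lower (median 0.73). Beside them 27.3% and 26.5% of all genes (median 0.03) were, and 57.5% and 5.65% of genes under 10 kb (median 0.61). The share of pairs that were lower thus ran from 28.3% (AU-rich element binding and decay) to 57.4% (other immediate early genes). It was 66.7% for the 9 members and 18.3% over all genes and baits. Differences between the 14 baits passed for 25 of 25 other immediate early genes, 13 of 14 feedback genes, 20 of 21 ERK cascade genes and 24 of 25 decay factors, beside 66.9% of all genes.

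The members' profiles over the 14 baits were compared by Pearson's r of the log2 ratios, given as a description with n = 14, since the points share libraries, depth and sets. The 36 pairs of members ran from r = -0.16 (DUSP5 and ZFP36L1) to 0.91 (IER3 and MYC), with a median of 0.63. DUSP1 was nearest to MYC (r = 0.89), IER2 to IER3 (0.85), IER5 to IER3 (0.82), ZFP36 to DUSP1 (0.78), DUSP5 to KLF6 (0.73) and ZFP36L1 to MYC (0.72). Among 12231 genes with a mean of at least 5 CPM, those nearest to the members' mean profile were TRIB1 (0.94), KLF4 (0.93), ASB6 (0.93), CTDSP1 (0.93) and NFKB2 (0.92). The nearest gene of the table to DUSP1 was DUSP6 (0.93), a cytoplasmic ERK phosphatase, to MYC was CHAC1 (0.96), to IER5 was PIM3 (0.96) and to DUSP5 was AC067750.1 (0.95). ZFP36 was nearest to STING1 (0.94), ZFP36L1 to TRIM25 (0.94), IER3 to HOXC11 (0.94), IER2 to SIX5 (0.93) and KLF6 to TRIM68 (0.91).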

How the data were processed

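RNA was sequenced from 60 libraries of Flp-In HEK293 lines, 56 in a first table (14 baits, 2 inputs and 2 pulldowns each) and 4 in a second. The deposited values are unnormalised counts of reads for each gene, made by the authors, and STAR 2.7.4a, featureCounts and hg38 are named in the submitters' processing notes. Library preparation used a strand-specific kit, per the labels' protocols, while the gene annotation and the strand setting used to count were not given in the sources used here. One of 60591 rows, which names no gene, was left out, and 0 columns were unassigned.

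Counts were filtered with filterByExpr by group, scaled by TMM and fitted with edgeR 4.0.16 (R 4.3.3, robust quasi-likelihood, 1 mean per bait and fraction, 28 residual degrees of freedom; 2 in the second table, fitted alone). The two-sided p-values were adjusted by Benjamini-Hochberg over all genes tested, with a threshold of 0.05. CPM are TMM-scaled. SE is the standard error of the fitted log2 difference. Inputs, pulldowns and comparisons that share a reference construct are not independent, and every comparison with NLS shares its libraries. Replicate libraries are not stated to come from separate cultures, so p-values measure only the spread between these libraries. The pair of GFP inputs differed least (chi-square per degree of freedom 1.30, against 2.8 to 151 in other pairs) and was kept as 2 libraries. The procedure was tested on simulated data. Of 1.5-fold changes set in SRSF7 pulldowns, 9.4% were recovered against own input, 3.1% against NLS and 1.6% in the test between 14 baits. Of 2-fold changes 60%, 50.8% and 29.2% were recovered, so a value that did not pass does not show that a change was absent. Library totals are given with the results, and counting precision follows from them.

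All 9 members were read in every comparison, though not every value or call is printed. From each list of partners, up to 3 genes with the smallest adjusted p in the test between 14 baits were named (some genes that this rule chose are not reported here), and neighbours by profile were the 5 nearest genes to the members' mean and the 1 nearest gene and member to each. Members and lists were chosen with earlier results of these data known. Alternatives were DESeq2 1.42.0 and its size factors, total counts, other filters, the replicate number as a block, set II alone, the odd inputs left out, and each library left out in turn.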

Additional observations from a re-analysis of the deposited data

Results flagged for a closer look

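The ratio of pulldown to own input differed between the 14 baits for each of the 9 members in an F test of the difference itself. The adjusted p-values were 3.31e-11 for DUSP5, 5.69e-09 for ZFP36, 2.74e-08 for DUSP1, 7.11e-08 for MYC, 8.99e-08 for KLF6, 3.7e-06 for ZFP36L1, 1.48e-05 for IER2, 0.00378 for IER5 and 0.00387 for IER3. Over all genes tested 66.9% passed. Within the 5 baits that share 1 library set, the same test passed for DUSP5 (2.53e-09), KLF6 (5.26e-05), ZFP36 (0.000501) and ZFP36L1 (0.0324). Over all genes tested 44.1% passed there, a share close to that of the members. The ZFP36L1 call was lost on leaving out single libraries, as named above.

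Some ratios differed from that of the NLS bait in the test of the difference (log2, adjusted p under 0.05). Higher values were ZFP36 with SRSF7 (0.88), with SRSF1 (0.81) and with the mean of the speckle baits (0.69), and KLF6 (0.77), DUSP1 (0.70) and DUSP5 (0.68) with SRSF1. ZFP36L1 was higher with SAM68 (1.07), WRAP53 (0.66) and FLAG (0.66), and IER5 (0.93), MYC (0.68) and DUSP1 (0.67) were higher with WRAP53. With pulldowns alone MYC (0.15, adjusted p = 0.471) and DUSP1 (0.25, adjusted p = 0.199) did not pass with WRAP53, while IER5 and ZFP36L1 did. Lower values were ZFP36 (-1.28), DUSP1 (-0.70) and MYC (-0.63) with LMNA, and KLF6 (-0.59) with SP100, which was 0.36 (adjusted p = 0.0154) with pulldowns alone. DUSP5 was lower with SP100 (-0.81), SMN2 (-0.74), SAM68 (-0.68), FLAG (-0.57) and NPAT (-0.55). These comparisons share the NLS libraries, so they are not separate pieces of evidence.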

How the results depend on the processing

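Counts of members called are given as higher and lower. Pulldown over own input gave 3 and 84, beside 16.2% and 18.3% of all pairs. The higher count was 5 with total counts, with a mean of at least 5 CPM and without the first inputs of FBL and NPAT. Of all pairs 20.8%, 25.6% and 19.8% were then higher. The lower count kept within 1.5 times under every alternative run. Leaving out 1 library, where the lone library of a group is assumed to vary like the others, gave 2 to 3 higher and 81 to 84 lower. Against NLS the counts were 12 and 9, beside 5.71% and 4.03% of all pairs. They were 24 and 14 with a mean of at least 5 CPM, beside 12.4% and 7.58%. Without the first inputs of FBL and NPAT they were 36 and 14, beside 10.6% and 5.93%. With total counts 14 were lower, beside 6.04%. Leaving out 1 library gave 6 to 13 and 4 to 11. In the 7 baits with inputs outside the set of NLS, pulldowns alone gave 14 and 12, where the ratios gave 5 and 5. By bait, 4.22% to 17.9% of all genes were higher and 4.16% to 17.6% lower with pulldowns alone. With the ratios 0.422% to 12% were higher and 0.262% to 7.8% lower. Pulldown against NLS pulldown (33 and 13) ran from 17 to 33 and 11 to 13, inputs (18 and 13) from 14 to 20 and 9 to 13, the test within 5 baits (4 members) from 3 to 4, and poly(A) (5 and 1) from 5 to 6 and 1 to 1. The test within 5 baits gave 9 members with DESeq2, with the 20 libraries alone and without the first inputs of FBL and NPAT. The test between 14 baits gave 9 members under every alternative run. For these 2 tests the shares of all genes were not counted under the alternatives. Reversed values were those of DUSP1 with NPAT (0.49) and SP100 (0.56) and KLF6 with SP100 (0.36) against NLS with pulldowns alone, and IER2 in FBL inputs (-0.021 without the first inputs of FBL and NPAT, and -0.065 to 0.89 on leaving out FBL input 1 or 2). With LMNA pulldowns set against GFP pulldowns in place of NLS, a comparison chosen after seeing the data, DUSP5 (0.57) and KLF6 (0.43) turned from values below 0. The cause was not tested.

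With the replicate number as a block, 7 pairs were higher and 6 lower against NLS, beside 5.22% and 3.63% of all pairs. Against own input 2 were higher and 82 lower, beside 15.7% and 17.8%. The block took away the call of ZFP36L1 within 5 baits (adjusted p = 0.0691). The calls lost against NLS were DUSP1, IER5, MYC and ZFP36L1 with WRAP53, DUSP5 and ZFP36L1 with FLAG, KLF6 with SP100 and MYC with LMNA (adjusted p = 0.0506 to 0.101). Same-numbered pulldowns and inputs deviated together in 7 of 14 baits (correlations from 0.26 to 0.46) and not in the other 7 (-0.22 to 0.03), and the labels name no shared culture or day, so the number was not taken as pairing. The limits of the data are 2 libraries per group and, for 9 baits, a library set that cannot be told apart from the fraction. Counts of ZFP36 as low as 37 limit its precision in pulldowns.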

Other observations

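SRSF7 pulldown libraries are in both tables, which were scaled separately and lie in different library sets, so their values are set side by side without a test. IER2 was at 109.6 and 115.5 CPM in the first table and at 42.9 and 40.7 CPM in the ribosome-depleted libraries of the second. DUSP1 was at 39.6 and 41.5 against 16.3 and 17.3 CPM, MYC at 93.1 and 102.6 against 57.5 and 66.5 CPM, and DUSP5 at 64.6 and 66.9 against 43.7 and 50.8 CPM. These 4 are examples: all 9 members were lower in both ribosome-depleted libraries than in both SRSF7 pulldowns of the first table. The share of all genes that were lower by that rule was not counted.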
